A study of Homo sapiens
Mus musculus with 2 samples.

Results

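The 10 genes described here run the licensing of DNA replication and the supply of its building blocks: Mcm2, Mcm3, Mcm4, Mcm5, Mcm6 and Mcm7, Pcna, Dut, Rrm1 and Rrm2. They were chosen by name, with earlier results of these data known. All 10 are among the 25504 genes of both tables, and all 10 passed the minimum of 20 UMIs set for testing. UMIs (unique molecular identifiers) tag single captured RNA molecules. The cells were epithelium dissociated from the colon of 1 wild-type C57Bl6 mouse, for which the labels name no treatment. They were run as 2 droplet libraries of different cells, replicates 1 and 2, with inDrop capture and CEL-Seq amplification. Human K562 leukaemia cells were mixed in and were not analysed here. With 1 animal and 1 condition, the comparisons below are between classes of barcodes within the same libraries. Their p-values rest on the spread left once the overall difference between the 2 libraries is removed. Both libraries are from 1 animal, so that spread may be technical.

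Before a cell copies its DNA, the proteins of Mcm2 to Mcm7 are loaded as a ring of 6 different subunits onto replication origins, a step called licensing, and later unwind the DNA at the fork. Pcna encodes the sliding clamp that holds DNA polymerases on their template. Rrm1 and Rrm2 encode the large and the small subunit of ribonucleotide reductase, which makes deoxynucleotides from ribonucleotides, and Dut encodes the enzyme that removes dUTP, so that uracil is kept out of DNA. In the colon, cell division is confined to the lower part of the crypt, and both the absorptive and the secretory lineage pass through dividing progenitors before their cells come to rest.

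Replicate 1 held 1738 barcodes with a median of 4615.5 UMIs (1001 to 17891) and replicate 2 held 664 with a median of 4756.5 (1002 to 22505). After doublet scoring, 1651 and 631 barcodes were kept and clustered without the 10 genes and without the lists of related genes below. No barcode of one library had the same counts as a barcode of the other. The cycling cluster of 128 barcodes was led by Ube2c, Top2a, Cdk1 and Birc5, and its summed level of 22 mitotic markers was 3518 to 5269 CPM (UMIs per 1000000) in its library sums. It split into 65 non-secretory barcodes (52 and 13 in replicates 1 and 2), led by Reg3b, Slc5a8 and Muc3, and 63 secretory-type barcodes (40 and 23), led by Mptx1, Spink4, Reg4 and Agr2. The split is a sub-clustering: 14 of the non-secretory barcodes had at least 60 UMIs of secretory markers per 10000, a level that no secretory-type barcode fell below.

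A class of 222 barcodes (160 and 62) is called crypt progenitor-like, and the name rests on 1 leading marker, Cdca7. Its 16 crypt progenitor markers summed to 1771 and 1248 CPM, above goblet-like (683 and 580) and colonocyte-like barcodes (300.5 and 274) but below deep crypt secretory-like ones (1793 and 1603) and both cycling classes (1668 to 2520). Its colonocyte markers summed to 9406 and 10194 CPM, against 61104 and 50986 in colonocyte-like barcodes. The name therefore stands for a cluster and not for an established cell type. Its Lgr5, the colon stem cell marker, stood at 29.4 and 5.98 CPM, and genes of absorptive cells such as Gsdmc2 were also among its leading genes. It was not free of division: 14.9% of its barcodes had at least 10 mitotic marker UMIs, against 4.86% of deep crypt secretory-like barcodes, 0.585% of goblet-like and 0.183% of colonocyte-like barcodes. The classes taken as resting were the deep crypt secretory-like (304 and 87 barcodes, led by Reg4), goblet-like (274 and 68, led by Clca1) and colonocyte-like barcodes (419 and 126, marked by Car4 and Slc26a3). Their T cell markers summed to at most 178 CPM in any library, and those of red cells to at most 32.9 CPM. Median UMIs were 7701 and 6817 in non-secretory and secretory-type cycling barcodes against 5650.5 to 6084 in the others, although in replicate 1 the median of secretory-type cycling barcodes (5211) was within the range of the others (5094 to 5862). Median doublet scores were 0.54 and 0.58 against 0.36 to 0.42. Counts of calls with barcodes thinned to 2000 UMIs and with no doublet filter are given among the alternatives.

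Mcm4, Mcm5 and Mcm7, 3 subunits of the helicase, were plentiful in cycling and progenitor barcodes and scarce in goblet-like and colonocyte-like ones. Deep crypt secretory-like barcodes, counted here as resting although 4.86% had at least 10 mitotic marker UMIs, held means between these. Mcm4 stood at 71.5 and 44.0 CPM in non-secretory cycling, 67.5 and 89.2 in secretory-type cycling, 80.3 and 39.9 in crypt progenitor-like, 42.9 and 14.1 in deep crypt secretory-like, 10 and 1.96 in goblet-like and 1.97 and 4.10 in colonocyte-like barcodes of replicates 1 and 2. The 3 dividing or progenitor classes overlapped one another, and every library of them was above both goblet-like and both colonocyte-like libraries. Mcm5 stood at 178 and 61.6, 97.0 and 122, 82.6 and 63.8, 61.0 and 31.4, 12.7 and 9.80, and 5.13 and 3.08 CPM in those 6 classes. Mcm7 stood at 141 and 61.6, 88.6 and 113, 73.5 and 45.8, 61.6 and 40.8, 6.67 and 3.92, and 7.50 and 5.13 CPM. For both genes the libraries of non-secretory cycling barcodes lay on either side of the secretory-type ones, and goblet-like and colonocyte-like barcodes held the lowest values. Deep crypt secretory-like libraries overlapped crypt progenitor-like ones for Mcm4 and Mcm7 and lay below them for Mcm5.

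Mcm6, another subunit, was also found in colonocyte-like barcodes. It stood at 121 and 44.0 CPM in non-secretory cycling, 101 and 89.2 in secretory-type cycling, 115 and 73.8 in crypt progenitor-like and 74.3 and 26.7 in deep crypt secretory-like barcodes. In colonocyte-like barcodes it was still at 25.3 and 42.1 CPM, whereas goblet-like barcodes held 9.33 and 3.92 CPM. The colonocyte-like values overlapped those of deep crypt secretory-like barcodes and did not overlap those of goblet-like ones.

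Mcm2 and Mcm3 did not follow the other members. Mcm2 was spread over all classes, at 74.0 and 106 CPM in non-secretory cycling, 139 and 108 in secretory-type cycling, 111 and 134 in crypt progenitor-like, 103 and 163 in deep crypt secretory-like, 94.7 and 112 in goblet-like and 115 and 163 in colonocyte-like barcodes. Each class overlapped the next in the order of its means, and non-secretory cycling barcodes held the lowest mean. Mcm3 was lowest in goblet-like barcodes, at 7.33 and 17.6 CPM, and stood at 51.8 and 35.2 in non-secretory cycling, 33.7 and 32.9 in secretory-type cycling, 48.7 and 63.8 in crypt progenitor-like, 32.6 and 23.5 in deep crypt secretory-like and 20.5 and 46.2 CPM in colonocyte-like barcodes. Over the 12 class sums, Pearson's r between the log2 level of a member and the mean of the other members was -0.26 for Mcm2 and 0.60 for Mcm3, and 0.88 to 0.97 for the other 8. These are descriptions over sums that share libraries and a clustering. Whether genes that overlap Mcm2 or Mcm3 add to their counts was not tested, since neither the strand of counting nor the annotation is given in the sources used here.

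**Figure D1:**
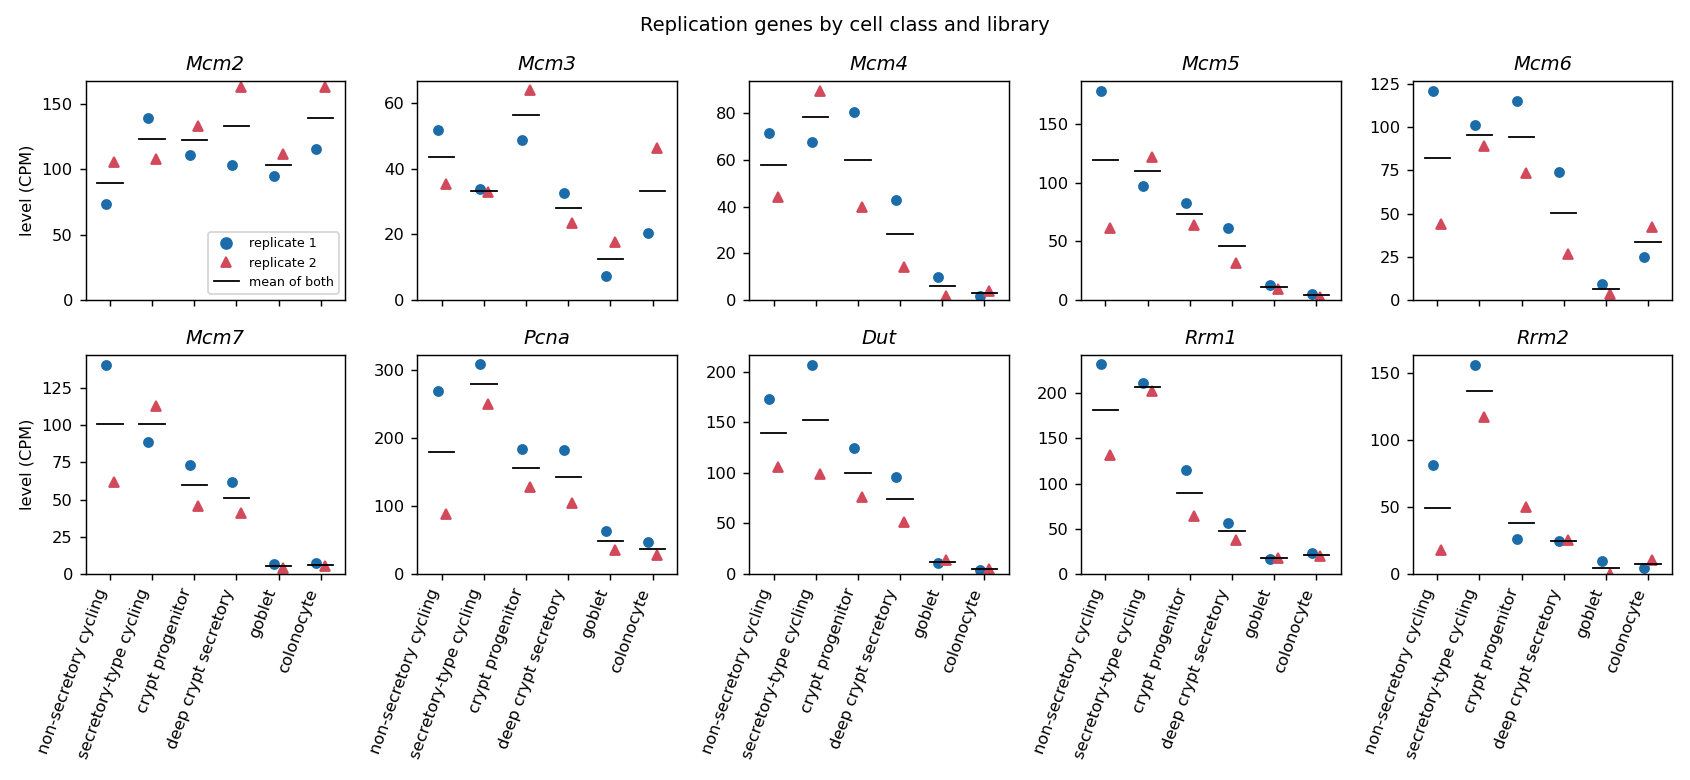
Level of each of the 10 genes (CPM, linear axis from 0, a separate scale for each gene) in 6 classes of barcodes. Circles are replicate 1, triangles replicate 2 and bars the mean of both. Mcm4, Mcm5, Mcm7 and Dut fall towards 0 in goblet-like and colonocyte-like barcodes, whereas Mcm2 stays between 74.0 and 163 CPM in every class.

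Pcna, the clamp, was highest in secretory-type cycling barcodes, at 308 and 249 CPM, and retained a level at rest. It stood at 269 and 88.0 CPM in non-secretory cycling, 183 and 128 in crypt progenitor-like, 183 and 104 in deep crypt secretory-like, 62.7 and 35.3 in goblet-like and 46.2 and 27.7 in colonocyte-like barcodes. The 4 upper classes overlapped in a chain, and all their libraries were above all goblet-like and colonocyte-like libraries. The annotated copy Pcna-ps2 had 75 UMIs against 1240 of Pcna in the kept barcodes, so a part of its reads may have been assigned to either.

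Among the deoxynucleotide genes, Dut stood at 173 and 106 CPM in non-secretory cycling, 207 and 98.6 in secretory-type cycling, 124 and 75.7 in crypt progenitor-like, 96.1 and 51.8 in deep crypt secretory-like, 10.7 and 13.7 in goblet-like and 4.34 and 5.13 in colonocyte-like barcodes. Its goblet-like and colonocyte-like libraries did not overlap. Rrm1 stood at 232 and 132 CPM in non-secretory cycling and 211 and 202 in secretory-type cycling barcodes. All 4 of those libraries were above the 115 and 63.8 of crypt progenitor-like barcodes, which in turn were above the 56.8 and 37.6 of deep crypt secretory-like, the 22.9 and 19.5 of colonocyte-like and the 16.7 and 17.6 CPM of goblet-like ones.

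Rrm2, the subunit whose supply limits the enzyme over the cell cycle, stood at 156 and 117 CPM in secretory-type cycling barcodes. Non-secretory cycling barcodes held 81.4 and 17.6 CPM, the latter from 2 UMIs (exact Poisson 95% interval 2.13 to 63.5 CPM, counting error only). Crypt progenitor-like barcodes held 26.0 and 49.8, deep crypt secretory-like 24.8 and 25.1, and colonocyte-like 4.74 and 10.3 CPM. Goblet-like barcodes held 9.33 CPM in replicate 1 and 0 UMIs in replicate 2, which allows up to 5.88 CPM by the 3 counts that a count of 0 leaves possible and up to 7.23 CPM by the Poisson interval. Both secretory-type cycling libraries were above every other library.

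Mcm4, Dut and Mcm5 were far higher in crypt progenitor-like than in colonocyte-like barcodes, and most other members were higher too. With edgeR's quasi-likelihood test and Benjamini-Hochberg adjustment over all 8022 genes tested, 8 members were higher in crypt progenitor-like barcodes, where 13.5% of all genes tested were called higher, and 1 was lower, where 13.6% were. The median log2 fold change was 1.89 over the members and -0.02 over all genes tested. Mcm4 differed by a log2 fold change of 4.20 (SE 0.45, edgeR adjusted p = 2.09e-19), Dut by 4.13 (SE 0.36, edgeR adjusted p = 2.16e-28) and Mcm5 by 3.67 (SE 0.38, edgeR adjusted p = 4.08e-20). Mcm7 (2.81), Rrm2 (2.06), Rrm1 (1.71), Pcna (1.67) and Mcm6 (1.23) were also higher, each in both libraries. Mcm3 did not pass the test, at 0.50 (SE 0.30, edgeR adjusted p = 0.231). The genes Mcm4 and Dut were estimated from few molecules at rest, 9 and 16 UMIs in all colonocyte-like barcodes. Mcm6 did not pass with DESeq2 (0.92, DESeq2 adjusted p = 0.144) or with all other genes used for clustering (0.66, edgeR adjusted p = 0.232). The latter change is relative to only 145 genes then tested, whose median log2 change was 0.37, so redrawn classes and changed scaling cannot be told apart. Taken from replicate 2 alone, with 0.5 UMIs added to each sum as in all ratios of a single library, the Mcm4 CPM ratio was 3.15 on the log2 scale, and from replicate 1 alone 5.22; for Mcm6 these values were 0.81 and 2.19.

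Mcm2 was the member called lower in that comparison, at -0.54 (SE 0.21, edgeR adjusted p = 0.0391). Fitted changes are relative to the genes tested, after TMM scaling, and in this comparison they lie 0.37 below the log2 ratio of CPM. The Mcm2 CPM ratio itself was -0.051 in replicate 1 and -0.28 in replicate 2. The fitted change passed the test in 7 of 11 alternative analyses, with adjusted p between 7.68e-05 and 0.288. It did not pass with no replicate block, at clustering resolution 2, with barcodes thinned or with cycling barcodes taken by their mitotic UMIs. Fitted changes also lay 0.37, 0.32, 0.21 and 0.19 below the CPM ratios in the comparisons of secretory-type cycling with resting secretory, deep crypt secretory with goblet, secretory-type cycling with deep crypt secretory and non-secretory cycling with crypt progenitor barcodes.

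Secretory-type cycling barcodes were set against the mean of the deep crypt secretory-like and goblet-like classes. By edgeR 8 of the 10 members were higher, where 4.44% of all genes tested were, and none was lower, where 5.72% were. Their median log2 fold change was 1.95, against -0.17 over all genes tested. Rrm2 rose most, by 3.0 (SE 0.34, edgeR adjusted p = 1.48e-16), followed by Rrm1 at 2.51 (SE 0.27, edgeR adjusted p = 1.28e-18) and Mcm7 at 2.17 (SE 0.36, edgeR adjusted p = 9.14e-08). Dut (2.03), Mcm4 (2.03), Mcm5 (1.87), Mcm6 (1.87) and Pcna (1.35) rose too, each in both libraries. Mcm2 stood at -0.27 (SE 0.25) and Mcm3 at 0.49 (SE 0.47), neither passing the test. Replicate 2 alone gave a log2 CPM ratio of 3.79 for Mcm4 against 1.72 in replicate 1, and rests on 1 goblet-like UMI (exact Poisson 95% interval 0.0496 to 10.9 CPM). Rrm2 was at 3.35 in replicate 1 and had no ratio in replicate 2, where goblet-like barcodes held 0 UMIs. With barcodes thinned, Mcm5 (1.55, edgeR adjusted p = 0.114) and Mcm6 (1.82, edgeR adjusted p = 0.0538) did not pass the test.

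The mean of the 2 resting secretory classes hides a step between them, so they were also compared directly, a comparison added after the class levels had been seen. In deep crypt secretory-like against goblet-like barcodes, 9 members were higher by edgeR, where 6.96% of all genes tested were called higher. Mcm7 differed by 2.86 (SE 0.42, edgeR adjusted p = 4.57e-10), Mcm6 by 2.51 (SE 0.39, edgeR adjusted p = 3.74e-09) and Dut by 2.46 (SE 0.35, edgeR adjusted p = 6.06e-11). Mcm5 (1.75), Mcm4 (1.75), Rrm2 (1.52), Rrm1 (1.23), Pcna (1.19) and Mcm3 (1.18) were higher as well, and Mcm2 was at -0.02 (SE 0.22). Mitotic markers moved with this difference, at 361 and 340 CPM in deep crypt secretory-like against 121 and 184 CPM in goblet-like barcodes, and their part in it was not tested. The count fell to 2 when all genes outside the lists were used to draw the classes, with only 145 genes then tested. It fell to 5 with barcodes thinned to 2000 UMIs, and to 6 without the library as a block or with DESeq2. Those 145 are the members, the lists below and mitochondrially encoded genes, with a median log2 change of 0.17 against 0.08 in the main analysis. Fitted changes are then relative to them, so redrawn classes and changed scaling cannot be told apart in that count. The shares of all genes called under these alternatives are not given here. Without replicate 1 the log2 CPM ratio of Mcm3 was 0.39, and without replicate 2 it was 2.10.

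The second step, from deep crypt secretory-like to secretory-type cycling barcodes, was likewise compared after the levels had been seen. Here 3 members were higher by edgeR, where 1.86% of all genes tested were. They were Rrm2 at 2.24 (SE 0.34, edgeR adjusted p = 1.46e-08), Rrm1 at 1.90 (SE 0.28, edgeR adjusted p = 2.72e-09) and Pcna at 0.76 (SE 0.23, edgeR adjusted p = 0.0328). Mcm4 (1.16) and Mcm5 (0.99) had an edgeR adjusted p of 0.0565 each, and Dut (0.80), Mcm7 (0.75) and Mcm6 (0.61) were further from the threshold. Rrm1 and Rrm2 were called in 12 of 12 alternative analyses and Pcna in 5 of 12. Mcm4 and Mcm5, not called in the main analysis, were each called in 6 of 12. The count of members called ran from 2 to 7 over the alternatives, whose shares of all genes called are not given here. The comparisons of the secretory classes share sums with one another, so their values are given side by side and are not independent.

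**Figure D2:**
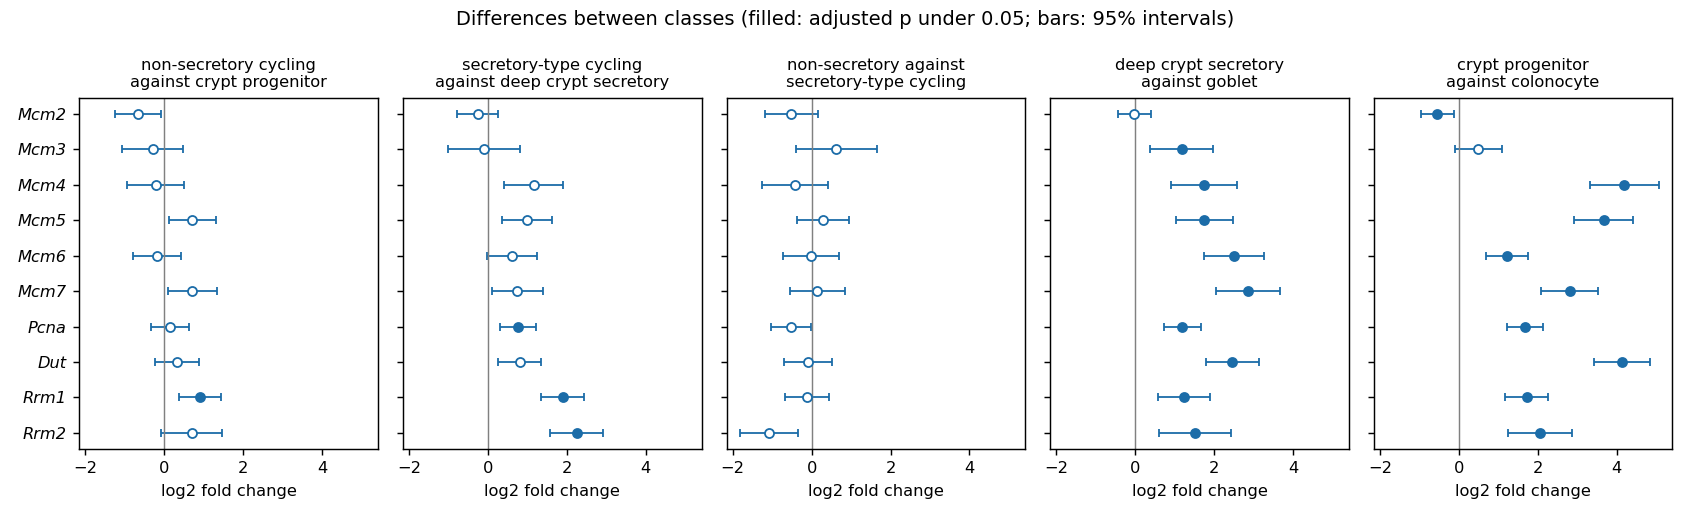
Log2 fold change of each gene in 5 comparisons of classes, from edgeR, with bars of 95% intervals. Filled points passed the test at an adjusted p of 0.05. In the comparison of deep crypt secretory with goblet barcodes 9 points are filled, in that of secretory-type cycling with deep crypt secretory barcodes 3, and in that of both cycling types none.

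Between non-secretory cycling and crypt progenitor-like barcodes, 1 of the 10 members was called by edgeR as higher, where 1.23% of all genes tested were: Rrm1, at 0.91 (SE 0.27, edgeR adjusted p = 0.0280), higher in both libraries. That call was kept in 5 of 11 alternative analyses, with adjusted p between 2.77e-05 and 0.934, the latter with barcodes thinned, where the change was 0.29. Mcm7 and Mcm5 (0.71 each), Rrm2 (0.69), Dut (0.33) and Pcna (0.15) were above 0 and Mcm2 (-0.66), Mcm3 (-0.29), Mcm4 (-0.21) and Mcm6 (-0.19) below, none passing the test. At an unadjusted p under 0.05 there were 4, Rrm1, Mcm5, Mcm7 and Mcm2. The share of all genes at that cut is not given here, so this count is not read as a result. With no doublet filter Mcm5 and Mcm7 were called too. Intervals were wide: the 95% interval of Mcm4 ran from -0.94 to 0.51 and that of Rrm2 from -0.09 to 1.47. Replicate 2 contributed 13 barcodes with 113701 UMIs to the non-secretory cycling class, and its Rrm2 CPM ratio was -1.21 on the log2 scale against 1.64 in replicate 1. Without that sum the count was still 1.

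No member was called between the 2 types of cycling barcodes by edgeR, where 3.04% of all genes tested were called in either direction. At an unadjusted p under 0.05 there were 2, Rrm2 and Pcna, both lower in non-secretory cycling barcodes in both libraries. This count too lacks the share of all genes at that cut and is not read as a result. Rrm2 stood at -1.07 (SE 0.38, 95% interval -1.81 to -0.34, edgeR adjusted p = 0.106) and Pcna at -0.52 (SE 0.26, 95% interval -1.03 to -0.01). DESeq2 also called 0. At clustering resolution 0.5 Rrm2 was called, at -1.31. The other intervals allow differences in either direction, such as -0.73 to 0.69 for Mcm6 and -0.67 to 0.44 for Rrm1. Whether the change from deep crypt secretory-like to secretory-type cycling barcodes differed from that from crypt progenitor-like to non-secretory cycling ones was tested as an interaction, also chosen after the levels were seen. The estimate was above 0 for all 10 members, which share the same sums. The share of all genes above 0 is not given here, so this count is not read as a result. The largest estimates were those of Rrm2 at 1.55 (SE 0.52), Mcm4 at 1.37 (SE 0.53) and Rrm1 at 0.99 (SE 0.39). The median estimate was 0.54 over the members and -0.06 over all genes tested. For Mcm2 and Mcm3 both changes were themselves below 0 (-0.26 and -0.66, -0.10 and -0.29). None of the members was called, where 0.0997% of all genes tested were. An unadjusted p under 0.05 was reached by 3, again without the share of all genes at that cut.

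Single barcodes showed how often the genes were found together. Each barcode with at least 2000 UMIs was thinned to 2000, and the 8 members other than Mcm2 and Mcm3 were counted. Those 2 are the members that did not follow the others over these same classes. The shares of the 8 are therefore not independent of the class levels above. Shallower barcodes were left out: 6 crypt progenitor-like, 33 deep crypt secretory-like, 42 goblet-like and 26 colonocyte-like ones, and 0 of either cycling class. At least 3 of the 8 were found in 16 of 65 non-secretory cycling (24.6%, exact 95% interval 14.8% to 36.9%), 20 of 63 secretory-type cycling (31.7%, 20.6% to 44.7%), 39 of 216 crypt progenitor-like (18.1%, 13.2% to 23.8%) and 32 of 358 deep crypt secretory-like barcodes (8.94%, 6.19% to 12.4%). The share was 2 of 300 in goblet-like barcodes (0.667%, 0.0808% to 2.39%) and 0 of 519 in colonocyte-like ones, which allows up to 0.578% by the 3 counts that a count of 0 leaves possible and up to 0.708% by the exact interval. Intervals cover counting error only and not the spread between libraries. In replicates 1 and 2 the shares were 26.9% and 15.4% in non-secretory and 35% and 26.1% in secretory-type cycling barcodes. They were 20% and 13.1% in crypt progenitor-like and 10.5% and 3.61% in deep crypt secretory-like ones. None of the 8 was seen in 26.2%, 14.3%, 47.7%, 56.7%, 83.7% and 80.7% of the barcodes of these 6 classes in the same order. The libraries were furthest apart in non-secretory cycling barcodes, at 21.2% in replicate 1 and 46.2% in replicate 2. At this depth a barcode held a mean of 1.65 of the 8 genes in the non-secretory and 1.97 in the secretory-type cycling class. A barcode in which none was seen may therefore still express them. Over all 10 members the means were 1.86, 2.25, 1.38, 1.03, 0.38 and 0.468 in the 6 classes, in the same order.

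Shares of barcodes with a UMI were also counted for single genes. Dut was found in 28.6% of thinned secretory-type cycling barcodes and 0.385% of colonocyte-like ones, against 66.7% and 2.75% without thinning. Pcna was found in 36.5% and 9.44%. Mcm2, by contrast, was found in 20.6% of secretory-type cycling and 18.1% of colonocyte-like barcodes after thinning, and in 47.6% and 44.0% before. Whether the UMIs of Dut and Pcna in colonocyte-like barcodes come from these cells or from free RNA was not tested. The exact intervals of the Mcm2 shares after thinning were 11.5% to 32.7% and 14.9% to 21.7%. They pool the barcodes of both libraries and cover counting error only, so they cannot decide whether these classes differ in Mcm2.

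**Figure D3:**
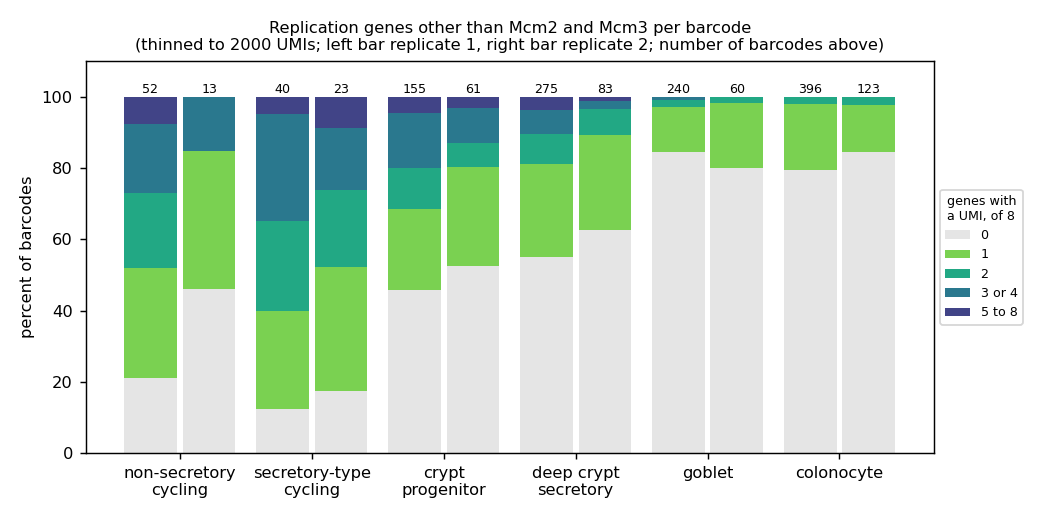
Percent of barcodes in each class with a UMI of 0, 1, 2, 3 or 4, or 5 to 8 of the 8 genes other than Mcm2 and Mcm3, after thinning to 2000 UMIs. The left bar of a pair is replicate 1 and the right bar replicate 2, with the number of barcodes above. Barcodes with 3 or more are seen in both cycling classes and in crypt progenitor-like and deep crypt secretory-like barcodes of both libraries, and reach 2 of 300 in goblet-like and 0 of 519 in colonocyte-like ones.

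Within the crypt progenitor-like and deep crypt secretory-like classes, barcodes were grouped by their mitotic marker UMIs after thinning to 2000 UMIs. Without thinning the median barcode of these classes had 3 and 1 such UMIs, so a barcode with 0 after thinning may hold some. In crypt progenitor-like barcodes with 0 (96 barcodes, both libraries), Mcm4 to Mcm7 summed to 219 CPM, Pcna stood at 104 and Dut, Rrm1 and Rrm2 summed to 198 CPM. With 1 to 2 mitotic UMIs (75 barcodes) these were 380, 193 and 253 CPM, and with 3 or more (45 barcodes) 356, 267 and 489 CPM. The sum of Mcm2 and Mcm3 was 203, 113 and 189 CPM in these bins. Unlike the other groups, it was not higher in the highest than in the lowest bin. In deep crypt secretory-like barcodes, Mcm4 to Mcm7 summed to 120, 280 and 414 CPM over 229, 100 and 29 barcodes, Pcna stood at 118, 185 and 328, and Dut, Rrm1 and Rrm2 summed to 114, 185 and 345 CPM. In replicate 2 the highest bins held 9 and 4 barcodes, too few to carry an order by themselves. There Dut, Rrm1 and Rrm2 of deep crypt secretory-like barcodes summed to 123, 154 and 125 CPM. These bins describe the barcodes and were given no test.

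**Figure D4:**
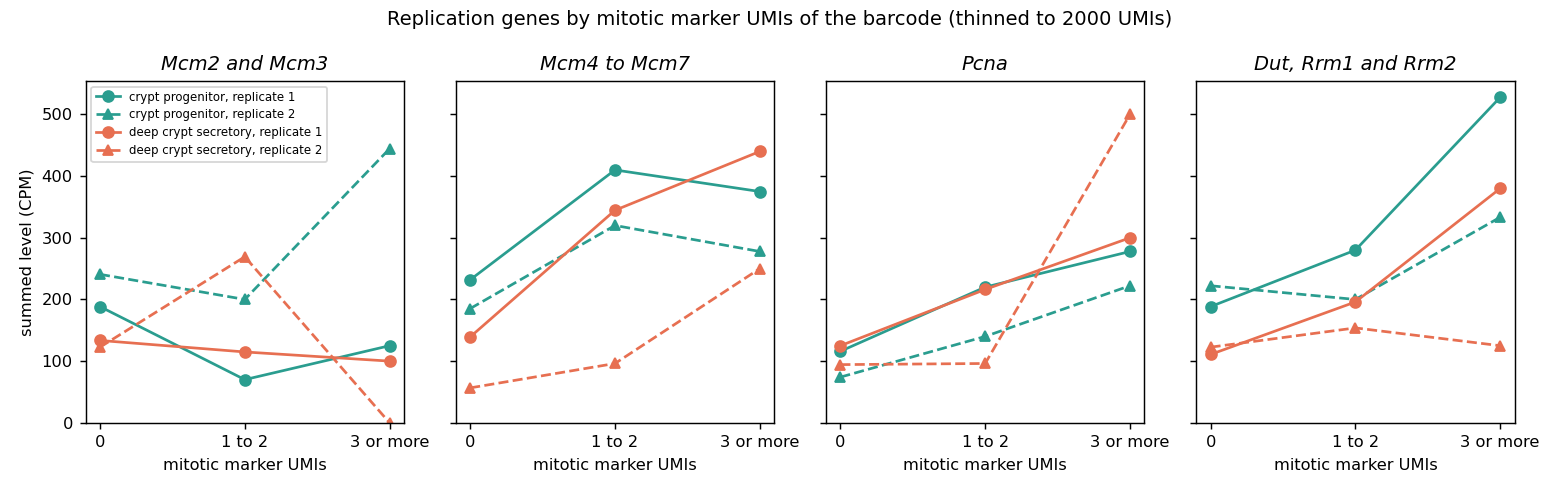
Summed level (CPM, linear axis from 0) of groups of the genes in crypt progenitor-like and deep crypt secretory-like barcodes with 0, 1 to 2, or 3 or more UMIs of mitotic markers, after thinning to 2000 UMIs. Solid lines with circles are replicate 1 and dashed lines with triangles replicate 2, whose highest bins hold 9 and 4 barcodes. Mcm4 to Mcm7 and Pcna are higher in the highest than in the lowest bin in all 4 lines, and Mcm2 and Mcm3 in 1 of the 4.

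Counts of called genes in 5 lists of related genes follow, to be read against the shares of all 8022 genes. Called higher and lower were 13.5% and 13.6% of all genes in crypt progenitor-like against colonocyte-like barcodes, 4.44% and 5.72% in secretory-type cycling against resting secretory, 6.96% and 6.64% in deep crypt secretory-like against goblet-like, 1.86% and 1.97% in secretory-type cycling against deep crypt secretory-like and 1.23% and 2.02% in non-secretory cycling against crypt progenitor-like barcodes. Between the cycling types 3.04% were called in either direction. A single called gene is 3.13% to 5.26% of a list, so counts of 1 or 2 are not read as results about a list.

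Of 22 other genes of origin licensing and firing, 8 (36.4%) were higher in crypt progenitor-like than in colonocyte-like barcodes and none was lower. The largest was Cdt1, which loads the helicase onto origins, at 31.7 and 25.9 CPM against 2.37 and 2.05 (log2 fold change 3.20, SE 0.54). In secretory-type cycling against resting secretory barcodes 5 (22.7%) were higher and none lower, led by Cdc45 (2.88), Dbf4 (2.55) and Gins2 (2.29), which activate the loaded helicase. Dbf4, the activating subunit of the Cdc7 kinase, was the gene of this list called in non-secretory cycling against crypt progenitor-like barcodes, at 113 and 114 CPM against 39.6 and 43.9 (1.27, SE 0.34). Between the 2 cycling types Mcm8, a relative of the helicase subunits that acts in repair, was the gene called, with 1 UMI in non-secretory and 14 in secretory-type barcodes. In deep crypt secretory-like against goblet-like barcodes 2 of 22 (9.09%, near the 6.96% of all genes) were called, Cdt1 (3.04) and Topbp1 (1.02), and in secretory-type cycling against deep crypt secretory-like barcodes 4 (18.2%), with Dbf4 (2.35), Cdc45 (2.14) and Gins2 (2.02) the largest.

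Of 32 fork and clamp genes tested, 21 (65.6%) were higher and 2 (6.25%) lower in crypt progenitor-like than in colonocyte-like barcodes, with a median log2 fold change of 1.48, and 14 (43.8%) were higher and none lower in secretory-type cycling against resting secretory barcodes. The annotated gene 2810417H13Rik, which encodes a clamp-associated factor, stood at 597 and 361 CPM in non-secretory cycling, 557 and 507 in secretory-type cycling, 173 and 99.7 in crypt progenitor-like, 88.2 and 58.0 in deep crypt secretory-like, 16.0 and 7.84 in goblet-like and 13.4 and 13.3 in colonocyte-like barcodes. Unlike Pcna it was called in non-secretory cycling against crypt progenitor-like barcodes (1.66, SE 0.22, edgeR adjusted p = 2.63e-11), the 1 gene of its list that was. That the 2 genes differ in this was not tested. Asf1b, a histone chaperone of the fork, was the largest in secretory-type cycling against resting secretory barcodes, at 4.58 (SE 0.60) and from 15 UMIs at rest. In deep crypt secretory-like against goblet-like barcodes 7 (21.9%) were higher, with Rpa2 (2.40) of the single-strand binding complex the largest, and in secretory-type cycling against deep crypt secretory-like barcodes 5 (15.6%) were, led by Asf1b (3.11).

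Of 20 deoxynucleotide genes outside the members, 10 (50%) were higher and 4 (20%) lower in crypt progenitor-like than in colonocyte-like barcodes, and 6 (30%) were higher and 2 (10%) lower in secretory-type cycling against resting secretory barcodes. Tk1, the thymidine kinase of dividing cells, stood at 175 and 96.7 CPM in non-secretory cycling, 190 and 169 in secretory-type cycling and 48.7 and 35.9 in crypt progenitor-like barcodes, and at most at 3.92 CPM in any goblet-like or colonocyte-like library. It was the gene of this list called in non-secretory cycling against crypt progenitor-like barcodes (1.61, SE 0.32, edgeR adjusted p = 6.44e-05). Tyms (2.24), the thymidylate synthase, and Dck (2.11), a kinase that salvages deoxycytidine, rose with it in secretory-type cycling against resting secretory barcodes. Between the cycling types 3 were called by edgeR: Shmt1, which feeds one-carbon units to thymidylate synthesis, was higher in non-secretory barcodes (1.49, SE 0.45), and Cmpk1 (-1.10, SE 0.20), a pyrimidine nucleotide kinase, and the nucleoside transporter Slc29a1 (-1.52, SE 0.41) were lower. In deep crypt secretory-like against goblet-like barcodes 9 (45%) were higher and none lower, with Tk1 (2.97) the largest, and in secretory-type cycling against deep crypt secretory-like barcodes 4 (20%) were higher and 1 (5%) lower.

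Ribonucleotides are the substrate of the reductase. Of 19 genes of their synthesis tested, 12 (63.2%) were higher and none lower in crypt progenitor-like than in colonocyte-like barcodes, among them Gart (3.76) of purine synthesis and Impdh2 (3.48) of guanine nucleotide synthesis. In deep crypt secretory-like against goblet-like barcodes 9 (47.4%) were higher and none lower, and in secretory-type cycling against deep crypt secretory-like barcodes none was called. Impdh2 (1.91), Cad (1.48) and Atic (0.87) were the 3 called (15.8%) in secretory-type cycling against resting secretory barcodes. Atic (0.95) was the 1 called in non-secretory cycling against crypt progenitor-like barcodes, and Paics, at 148 and 123 CPM in non-secretory against 38.0 and 37.6 in secretory-type cycling barcodes, the 1 called between the cycling types (1.84, SE 0.42, edgeR adjusted p = 0.000756).

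Among 29 regulators of entry into S phase, Cdkn1a, the inhibitor p21 of cyclin-dependent kinases and of Pcna, was highest in the goblet-like and colonocyte-like barcodes among the 6 classes. It stood at 34.5 and 8.79 CPM in non-secretory cycling, 92.8 and 61.1 in secretory-type cycling, 105 and 91.0 in deep crypt secretory-like, 129 and 223 in crypt progenitor-like, 908 and 697 in colonocyte-like and 947 and 915 CPM in goblet-like barcodes. It was lower in deep crypt secretory-like than in goblet-like barcodes by edgeR (-3.56, SE 0.19, edgeR adjusted p = 1.70e-76), lower in non-secretory cycling than in crypt progenitor-like (-2.77, SE 0.34, edgeR adjusted p = 8.28e-13) and lower in non-secretory than in secretory-type cycling barcodes (-1.44, SE 0.44, edgeR adjusted p = 0.0417). The interaction defined above was called for Cdkn1a (2.20, SE 0.49, edgeR adjusted p = 0.00909). Its log2 change was -2.77 from crypt progenitor-like to non-secretory cycling and -0.57 from deep crypt secretory-like to secretory-type cycling barcodes, the latter not passing the test. The non-secretory cycling level of Cdkn1a rests on 15 UMIs over both libraries. Its calls were not followed over the alternative analyses. Counts for the list were 9 higher (31.0%) and 1 lower in crypt progenitor-like against colonocyte-like barcodes, 7 (24.1%) and 2 in secretory-type cycling against resting secretory barcodes, 8 (27.6%) and 1 in deep crypt secretory-like against goblet-like, 4 (13.8%) and 1 in secretory-type cycling against deep crypt secretory-like, and 3 (10.3%) and 1 in non-secretory cycling against crypt progenitor-like. The lower counts were 1 or 2 genes each, 3.45% to 6.90% of the list. Ccna2, the cyclin of S and G2 phase, rose by 4.78, 3.69 and 2.50 in the 3 comparisons with a cycling class on one side and a class at rest or progenitors on the other. Cdk4, the kinase of G1 phase, was the largest in crypt progenitor-like against colonocyte-like barcodes (3.75). Cdk6 (1.64) and Ccnd1 (1.32), a G1 kinase and its cyclin, were higher in non-secretory than in secretory-type cycling barcodes.

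Of 4684 genes outside the clustering and outside the 10 with at least 100 UMIs, those whose log2 CPM over the 12 class sums was most like the mean of the members included Rfc3 (Pearson's r 0.98), Snrpd2 (0.97), Prmt1 (0.97), Cenpv (0.97), Dck (0.97), Impa2 (0.96) and Dnajc9 (0.96). Rfc3, a subunit of the loader that places the clamp on DNA, stood at 67.4, 82.2, 48.4, 37.5, 9.95 and 10.8 CPM in non-secretory cycling, secretory-type cycling, crypt progenitor-like, deep crypt secretory-like, goblet-like and colonocyte-like barcodes of both libraries together. Dnajc9, which acts with histones, stood at 96.3, 107, 49.1, 37.5, 11.4 and 11.1 CPM. The 12 sums share 2 libraries, and the genes were ranked on the same sums as the members, so these are descriptions.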

How the data were processed

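The authors deposited UMI counts per gene and barcode for 2 libraries as whole numbers without normalization, per the file headers. Per the submitters' processing notes the genome builds were GRCh38 and GRCm38. Neither the aligner, the annotation, the strand nor the barcode filter is given in the sources used here. The 10 members and the gene lists were chosen with earlier results of these data known. All barcodes passed minimums of 500 UMIs and 250 genes, and the 5% with the highest doublet score were left out of each library. An md5 hash of each symbol assigned genes either to clustering (12741, with all cell type markers) or to testing (12763, with the members and the lists). The 1500 most variable clustering genes gave 30 principal components, a graph of 15 neighbours and Leiden clusters at resolution 1 (leidenalg 0.10.2, Python 3.11.15). Co-regulated genes fall on both sides, so the tests are not independent of the clustering. Clusters were named from their marker lists, and 2 clusters of 315 and 258 barcodes stayed unnamed.

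UMIs were summed per library and class into 12 sums of 113700 to 2533000 UMIs. The 8022 genes outside the clustering with at least 20 UMIs were tested with edgeR 4.0.16 (R 4.3.3; glmQLFit, glmQLFTest, TMM, Benjamini-Hochberg), with the library as a block, because every class was taken from both libraries. There were 5 residual degrees of freedom and a common dispersion of 0.0128, so small p-values depend mainly on the dispersion shared among genes. Calls use an adjusted p of 0.05, and SEs are the log2 fold change divided by the root of F. Named genes are the members, the 3 largest called genes of each list and comparison, and the 8 genes most like the members, of which 1 is not reported here. The scripts were tested on simulated data. Alternatives were DESeq2 1.42.0, other scaling, filters, clustering, thinning and single libraries. Neither promoter nor protein sequences of the members were used here.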

Additional observations from a re-analysis of the deposited data

Results flagged for a closer look

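Barcodes outside the 6 classes compared above also held the 8 members other than Mcm2 and Mcm3. With both libraries pooled, colonocyte-like barcodes were the lowest of the 6 classes, at 118 CPM for the sum of the 8, and goblet-like ones stood at 125 CPM. In replicate 2 goblet-like barcodes were lower, at 86.2 against 117 CPM. Over all 10 members goblet-like barcodes were the lower of the 2 with both libraries pooled, at 234 against 274 CPM. T cell-like barcodes (57 and 11) stood at 916.7 CPM, from 122 UMIs, with 952 CPM in replicate 1 and 770 in replicate 2. Their cluster was mixed: plasma cell markers summed to 50236 CPM in replicate 1 and 116 in replicate 2, and myeloid markers to 607 and 36424 CPM. Unnamed cluster 4, shallow at a median of 1550 UMIs and led by Olfr1121 and Trmt61b, stood at 457.6 CPM, with haemoglobin gene Hbb-bs at 7766 CPM in replicate 1 and 5.24 in replicate 2 and the erythroid regulators Gata1 and Klf1 at 0. Unnamed cluster 5, with 26.3% of its UMIs from mitochondrially encoded genes, stood at 151.0 CPM. Tuft-like barcodes, 13 in all, stood at 266.4 CPM from 10 UMIs. The source of these counts was not tested.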

How the results depend on the processing

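The library served as a block because every class was drawn from both libraries. With no replicate block, 0 members instead of 1 were called in non-secretory cycling against crypt progenitor barcodes, 8 as before in secretory-type cycling against resting secretory, 8 instead of 9 in crypt progenitor against colonocyte, 6 instead of 9 in deep crypt secretory against goblet and 2 instead of 3 in secretory-type cycling against deep crypt secretory barcodes. In non-secretory cycling against crypt progenitor barcodes the count was also 0 with DESeq2, with no filter on low counts, at clustering resolution 2 and with barcodes thinned, 2 (Dut and Rrm2) when cycling barcodes were taken by their mitotic UMIs, and 3 (Rrm1, Mcm5 and Mcm7) with no doublet filter. Between the cycling types it was 1 at resolution 0.5. In deep crypt secretory against goblet barcodes it was 2 when all other genes were used for clustering and 5 with barcodes thinned. The former count also reflects scaling to the 145 genes then tested. In secretory-type cycling against deep crypt secretory barcodes it was 6 with RLE size factors, with at least 100 UMIs or by mitotic UMIs, 5 with all genes tested and 7 with no doublet filter. RLE scaling moved the median log2 change of all genes from -0.02 to -0.16 in crypt progenitor against colonocyte, from 0.08 to -0.03 in deep crypt secretory against goblet and from -0.21 to -0.10 in secretory-type cycling against deep crypt secretory barcodes. The 55 other counts stayed within 1.5 times the reported ones. The shares of all genes called under the alternatives are not given here. Changes in the counts of members are therefore not read as results about the members.

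Fitted values that changed sign passed no test under either setting, and the cause was not tested. In non-secretory cycling against crypt progenitor barcodes, by mitotic UMIs Mcm3 was 0.17, Mcm4 0.38 and Mcm6 0.043. With no doublet filter Mcm4 was 0.12 and Mcm6 0.011, with barcodes thinned Mcm4 was 0.39, without the sum of replicate 2 of the non-secretory cycling class Mcm6 was 0.025, and at resolution 2 Pcna was -0.25 and Dut -0.16. Between the cycling types, at resolution 0.5 Mcm2 was 0.085, Mcm5 -0.15, Mcm6 0.0057 and Mcm7 -0.38. By mitotic UMIs Mcm4 was 0.058 and Dut 0.43, with barcodes thinned Mcm3 was -0.32, with no replicate block Mcm6 was 0.043, with no doublet filter Mcm7 was -0.13, and without that sum Mcm6 was 0.20 and Rrm1 0.029. In deep crypt secretory against goblet barcodes Mcm2 was 0.023 with no replicate block, 0.044 with no filter on low counts, 0.082 with no doublet filter and 0.052 with barcodes thinned. In secretory-type cycling against deep crypt secretory barcodes Mcm3 was 0.064 with DESeq2, 0.0015 with RLE, 0.047 with at least 100 UMIs, 0.31 with no doublet filter, 0.48 with all other genes used for clustering, 0.49 with barcodes thinned and 0.46 by mitotic UMIs.

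A single library leaves no residual degrees of freedom, so it gave log2 CPM ratios without a test, and none for Rrm2 in replicate 2 against goblet-like barcodes, which held 0 UMIs of it. Over both single libraries the ratio of Mcm6 ran from -0.63 to 0.074 in non-secretory cycling against crypt progenitor barcodes and from -0.92 to 0.24 between the cycling types, where that of Rrm1 ran from -0.58 to 0.13. The libraries also differed in sign for other members, with replicate 2 given first. Between the cycling types these were Mcm5 (-0.92 and 0.85), Mcm7 (-0.80 and 0.64), Mcm4 (-0.92 and 0.064) and Dut (0.12 and -0.26). In non-secretory cycling against crypt progenitor barcodes they were Rrm2 (-1.21 and 1.64), Pcna (-0.48 and 0.55), Mcm3 (-0.71 and 0.11) and Mcm4 (0.24 and -0.15). Mcm2 differed in secretory-type cycling against resting secretory (-0.30 and 0.51) and against deep crypt secretory barcodes (-0.57 and 0.45). At resolution 0.5 no class took the crypt progenitor name, and with all other genes used for clustering no non-secretory cycling class formed, so the comparisons that need them were not run. Depth limits the non-secretory cycling class most, with 113701 UMIs in replicate 2.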
